A study of Mus musculus with 28 samples.

Results

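Cytochrome P450 enzymes are haem-containing monooxygenases, and the members of families 1 to 4 handle drugs, toxicants, steroids, arachidonic acid and other fatty acids. Most sit in the endoplasmic reticulum of hepatocytes, take electrons from the reductase Por and from cytochrome b5, and are densest around the central vein. They are used as a readout of hepatocyte maturity because cultured liver cells commonly lose them, and several are also made in gut, skin, fat or lung. The genes described here were all probes whose gene name in the scanner files was Cyp followed by a family number from 1 to 4, a letter and a number. This gave 90 probes for 63 genes in 19 subfamilies, of 41174 probes and 28034 genes on the array. 61 of the 63 were tested, among 21047 genes whose probe was well above background in the sample channel on at least 2 arrays. Cyp2b23 and Cyp4a29 were not.

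The study compared mouse liver organoids with their parental tissue and with unrelated tissues on 28 two-colour Agilent arrays. Each array held 1 sample labelled with Cy3 and a Stratagene mouse reference RNA labelled with Cy5, and all samples carry the strain label C57BL/6. Adult liver and pancreas of wild-type mice had 2 arrays each, and muscle, white adipose tissue and brown adipose tissue of wild-type mice had 3 each. Another set held whole liver, the hepatocyte fraction left after liver isolation, duct cells sorted for the surface antigen Mic1-1c3, and Lgr5-sorted cells taken 6 days after carbon tetrachloride (CCl4, a toxicant activated by P450 enzymes in the liver), with 2 arrays each. Livers at day 3 and day 13 of CCl4 treatment also had 2 arrays each. Organoids, grown according to the labels from single Lgr5 cells, were kept either in a medium for expansion (EM), with 2 arrays, or in one for differentiation (DM), with 1. No age, sex or number of animals per sample is given in the labels. Probes well above background in the sample channel made up from 17.75% of an array (pancreas) to 69.08% (brown adipose tissue), so a count of genes detected depends on the array as well as the tissue. All values below are levels as log2 of Cy3 over Cy5 for 1 probe a gene, unless a difference is named. A level near 0 where neither channel is above background carries no information. P450 levels are compared between samples, never between genes.

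Cy5 carried the same reference RNA on every array, yet for many P450 probes its signal moved with Cy3. Cyp2e1 had a log2 Cy3 signal of 16.41 and 16.71 in adult liver against 6.41 and 6.53 in EM organoids, and a Cy5 signal of 10.77 and 10.78 against 6.37 and 6.09. Of the 28 genes above background in Cy3 on both adult liver arrays and on no EM array, 21 had the higher mean Cy5 signal in adult liver, with a median Cy5 difference of 1.54 against -0.07 over all genes tested. Where Cy5 moves with Cy3 the ratio differs less between samples than Cy3 does, and the cause was not tested. Folds written as "at least" below are therefore on another scale than the log2 ratios and can exceed them: they compare Cy3 alone, after loess and Aquantile normalisation, with the lowest Cy3 signal well above background on each dim array standing in for the dim probe. They apply where no array of the lower group was above background, and without dye swaps they are open to dye bias. With the 5th percentile of such signals in place of the lowest, the bounds were smaller by a median of 1.45 times and at most 2.35 times.

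Array probes can cross-hybridise between close relatives, and the P450 subfamilies consist of close relatives. Of the 90 probes, 21 list a transcript of another gene in the files, among them those of Cyp2a4 (also Cyp2a5), Cyp2c66 (also Cyp2c65), and Cyp2c40 (also Cyp2c67, Cyp2c68 and Cyp2c69). The probes of Cyp4a12a and Cyp4a12b each list the other gene, and that of Cyp2d9 also lists Cyp2d11. The probes of 3 genes are shown because they fall on a matching stretch of hepatocyte genes that stood at different levels in differentiated organoids. Each is 60 bases, given 5′ to 3′ with mm9 coordinates, and capitals mark bases that all 3 share when they are aligned without gaps.
Cyp2e1, chr7:147959585-147959644: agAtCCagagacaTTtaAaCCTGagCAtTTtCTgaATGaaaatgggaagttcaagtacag
Cyp2c29, chr19:39403642-39403701: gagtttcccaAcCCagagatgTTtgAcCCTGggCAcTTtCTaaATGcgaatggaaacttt
Cyp2d9, chr15:82286799-82286858: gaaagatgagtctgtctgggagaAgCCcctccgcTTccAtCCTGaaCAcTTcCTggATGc
The 3 probes overlap over 39 bases and share 19 of them. Cyp2e1 and Cyp2c29 match at 37 of 52 bases, yet on the DM array Cyp2c29 stood at 4.64, Cyp2d9 at 4.01 and Cyp2e1, not above background, at 0.33.

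Proximal promoters were read for 49 of the 63 genes from the RefSeq table (GRCm38.p6) and searched on both strands, over the 250 bases before the start, for CAAAGTCCA, a motif bound by the hepatocyte nuclear receptor HNF4, and for GCGTG, the core bound by the aryl hydrocarbon receptor. CAAAGTCCA was found for 6 genes, Cyp2c40, Cyp2c65, Cyp2c70, Cyp3a11, Cyp3a16 and Cyp3a41a, and in 0.384% of all 32851 promoters in the table. GCGTG was found for 10 genes, Cyp1a1 among them, and in 28.2% of all promoters. The motifs do not overlap each other. The promoters of 4 genes are shown because their genes differed in level: Cyp1a1 was above background on both arrays of a group at day 3 of CCl4 only, Cyp2c65 was highest in DM organoids, Cyp2c70 was not above background there, and Cyp3a11 was in between. Capitals mark the match, and each sequence reads 5′ to 3′ on the gene's strand.
Cyp1a1, plus strand, chr9:57697363-57697612: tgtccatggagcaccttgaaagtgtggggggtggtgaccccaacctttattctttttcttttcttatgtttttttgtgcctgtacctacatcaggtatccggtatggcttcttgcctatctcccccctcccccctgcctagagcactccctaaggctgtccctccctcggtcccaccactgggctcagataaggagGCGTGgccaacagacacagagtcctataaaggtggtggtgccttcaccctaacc
Cyp2c65, plus strand, chr19:39060756-39061005: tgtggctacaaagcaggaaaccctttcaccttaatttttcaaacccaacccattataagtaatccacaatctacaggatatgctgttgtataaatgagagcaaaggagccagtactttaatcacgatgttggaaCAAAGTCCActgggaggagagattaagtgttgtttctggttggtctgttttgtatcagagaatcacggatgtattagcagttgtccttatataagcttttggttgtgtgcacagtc
Cyp2c70, minus strand, chr19:40187287-40187536: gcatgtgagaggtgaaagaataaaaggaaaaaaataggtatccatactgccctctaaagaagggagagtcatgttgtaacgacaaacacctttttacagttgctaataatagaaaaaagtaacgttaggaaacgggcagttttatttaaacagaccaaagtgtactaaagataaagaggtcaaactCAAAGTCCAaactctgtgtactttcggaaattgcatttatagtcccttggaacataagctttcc
Cyp3a11, minus strand, chr5:145879855-145880104: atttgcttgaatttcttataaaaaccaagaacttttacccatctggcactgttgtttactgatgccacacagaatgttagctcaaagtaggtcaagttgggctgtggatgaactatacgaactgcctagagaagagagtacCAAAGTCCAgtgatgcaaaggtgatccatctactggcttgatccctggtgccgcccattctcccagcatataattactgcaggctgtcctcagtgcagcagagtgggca
The motif begins 116 bases before the start in Cyp2c65, 64 in Cyp2c70 and 109 in Cyp3a11. A match describes these letters and is not evidence of binding.

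Each gene was placed by the group with its highest mean level among the groups where every array was above background. By this rule 50 of the 63 genes were highest in a liver or hepatocyte group, 8 in organoids, 1 in sorted non-parenchymal cells and 1 in an extrahepatic tissue, and 3 (Cyp2b23, Cyp2j11 and Cyp4a29) had no such group. All members of Cyp1a, Cyp2a, Cyp2d and Cyp4a that could be placed fell in liver. The organoid genes were Cyp1b1 in EM, and Cyp2c55, Cyp2c65, Cyp2c66, Cyp2j6, Cyp2s1, Cyp3a13 and Cyp4f16 in DM. Genes above background on every array numbered 53 in adult liver, 49 in whole liver, 46 in hepatocytes, 58 at each CCl4 time, 10 in EM, 29 in DM, 24 in duct cells, 8 in Lgr5-sorted cells, 32 in brown fat, 11 in white fat, and 5 each in muscle and pancreas. The share of all genes on the array was 49% in adult liver, 34.7% in EM, 34.7% in DM, 43.8% in duct cells, 62.8% in brown fat, 42.8% in muscle and 21.3% in pancreas. Taken singly, the EM arrays had 28 and 10 P450 genes above background, while the 29 of DM come from 1 array. The counts of EM and DM are therefore not on equal terms.

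**Figure D1:**
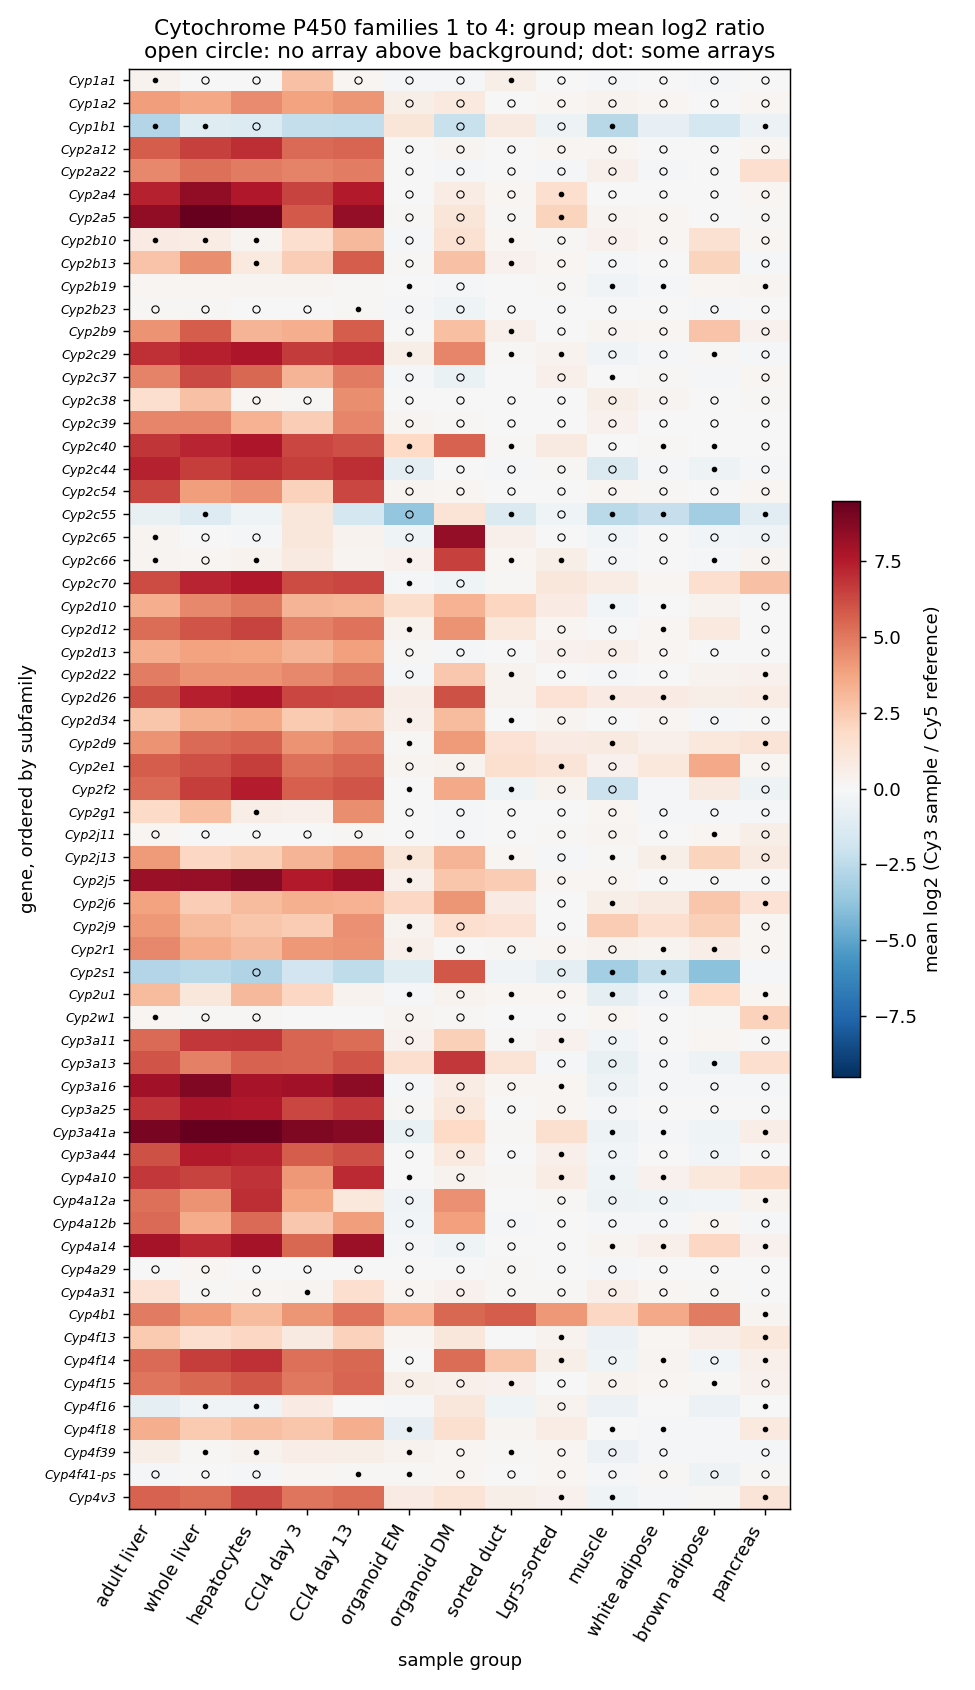
Mean level of the 63 P450 genes (rows, ordered by subfamily) in the 13 sample groups (columns), as log2 of Cy3 sample over Cy5 reference, from blue (below the reference) to red (above it). Open circles mark groups with no array above background and dots those with only some; the red block of the 5 liver columns and the single red cells of Cyp2c65, Cyp2c66 and Cyp2s1 under organoid DM stand out.

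The adult liver set P450 levels far above those of the unrelated tissues. Against muscle, 49 of 61 tested genes were higher and 0 lower, where 35.7% of all genes were called, 15.9% higher and 19.8% lower (limma, Benjamini-Hochberg adjusted p under 0.05 over all genes and a log2 difference of at least 1). Against white fat 48 were higher and 1 lower (27.9% of all genes called, 13.5% higher and 14.4% lower), against brown fat 48 and 1 (29.1% called, 13.3% and 15.8%), and against pancreas 48 and 3 (29% called, 12.7% and 16.3%). The median log2 difference of the members was 4.1, 4.25, 3.89 and 3.96 in that order, and that of all genes lay between -0.07 and 0. These comparisons share the 2 adult liver arrays. In tissues, fewer cells that make a transcript cannot be told apart from less transcript per cell.

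Among subfamilies with several tested genes, the median log2 difference of liver over muscle was 6.9 in Cyp3a, the main drug and steroid hydroxylases, 6.44 in Cyp2a, 5.75 in Cyp4a, the fatty acid hydroxylases, and 4.73 in Cyp2c. It was 3.73 in Cyp2d, 3.29 in Cyp2j and 3.03 in Cyp4f, and lowest in Cyp1a (2.09) and Cyp2b (1.65). Cyp3a41a, a steroid hydroxylase, stood at 9.2 and 8.81 in adult liver and at -0.01, -0.49 and -0.93 in muscle, and the groups did not overlap. Cyp2a5, the coumarin hydroxylase, stood at 8.04 and 8.76 in adult liver and was above background on no muscle, fat or pancreas array. On the ratio scale it differed from muscle by 8.13 ± 0.65 and from brown fat by 8.39 ± 0.65 log2 units, and in Cy3 by at least 1080-fold and 1630-fold. Cyp2j5, an arachidonic acid epoxygenase, was at least 240-fold higher in Cy3 than in muscle, and Cyp2c44, another epoxygenase, at least 290-fold.

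The alcohol-inducible Cyp2e1, which activates CCl4, stood at 5.63 and 5.93 in adult liver, 0.72, 0.17 and 0.4 in muscle, 1.05, 0.22 and 1.77 in white fat, and 3.67, 3.84 and 3.26 in brown fat. It was above background on all 3 arrays of each fat depot and on none of muscle, so brown fat was next to liver in order. The log2 difference of liver over brown fat was 2.19 ± 0.52 (SE, adjusted p = 0.00164). That call was lost with Agilent's own log ratio, where it was 0.99 (adjusted p = 0.554), as was the call against white fat (0.8, adjusted p = 0.639). Adult liver lay below another tissue for Cyp1b1, a carcinogen-activating enzyme of mesenchymal cells, in both fats and pancreas, and for Cyp2s1 and Cyp2w1 in pancreas. A further Cyp1b1 probe was above background on no array of adult liver, fat or pancreas. Cyp2w1 stood at 1.99 and 2.42 in pancreas, with 1 of the 2 arrays above background. The rule above placed it in brown fat, where its level was 0.1, -0.05 and 0.31.

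Cyp4b1, which bioactivates furans and was the only member placed in sorted non-parenchymal cells, was above background on every array of every group except pancreas. It stood at 4.8 and 5.1 in adult liver, 4.79 and 6.65 in duct cells, 1.59 and 6.69 in Lgr5-sorted cells, and 4.98, 4.78 and 4.93 in brown fat. The duct and Lgr5 arrays of 1 group lay far apart, and the duct range overlapped that of liver and brown fat. Duct cells exceeded hepatocytes, at 2.93 and 3.02, by 2.74 ± 0.98 (adjusted p = 0.0378). Leaving out the second duct array gave 1.81 (adjusted p = 0.35).

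Sorted duct cells held far less P450 transcript than the hepatocyte fraction. Of 61 genes, 42 were lower and 3 higher in duct cells (23.4% of all genes called, 11.5% lower and 11.9% higher), with a median log2 difference of -3.93 against 0 for all genes. Cyp1a2, a pericentral arylamine oxidase, stood at 4.73 and 4.28 in hepatocytes and at -0.01 and -0.13, not above background, in duct cells, a log2 ratio difference of -4.57 ± 0.2 and at least 51.5-fold in Cy3. The fatty acid hydroxylase Cyp4a14 differed by -7.93 ± 0.59 (at least 324-fold in Cy3) and Cyp3a25 by -7.65 ± 0.33 (at least 334-fold in Cy3). Besides Cyp4b1, the genes higher in duct cells were Cyp2s1, an epithelial and retinoid-metabolising enzyme, by 2.51 ± 0.46 (at least 6.2-fold in Cy3), and Cyp1b1, by 2.14 ± 0.24 (at least 3.83-fold in Cy3). Another Cyp1b1 probe read -0.04 and 0.37 in duct cells, both above background, and -0.06 and -0.08 in hepatocytes, neither above it. Some hepatocyte transcripts were still measured in duct cells: Cyp4f14, a leukotriene and fatty acid hydroxylase, stood at 2.15 and 3.09, and Cyp2e1 at 1.54 and 1.52. Among the 9 hepatocyte markers, 4 were above background on both duct arrays, with Alb at 3.91 and 5.33. All 7 bile duct markers were above background there, and so were all 6 endothelial, all 6 stellate and all 6 macrophage markers. Endothelial markers summed to 18.79 to 27.31 in duct cells and 4.33 to 4.47 in hepatocytes. Stellate markers summed to 4.07 to 4.32 against -17.78 to -13.32, and macrophage markers to -0.26 to 4.65 against 2.85 to 3.6. Their part in these levels was not tested. On each of the 2 slides that held both cell types, 45 of 45 called genes kept their sign. That had to follow, since 0 of the called genes had overlapping arrays, and it adds no support. The 2 groups also differed in sex-linked transcripts. Mean Xist, from the inactive X chromosome, was 1.81 in duct cells and -2.03 in hepatocytes, and the Y-linked Eif2s3y was -1.12 and 2.01. Of the P450 genes listed as sex-biased in mouse liver, all 3 male-biased and 5 of 6 female-biased were lower in duct cells, and the part of sex was not tested.

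In Lgr5-sorted cells 8 P450 genes were above background on both arrays. Of the 7 bile duct markers 1 was above background on both, and macrophage markers were high, with a summed level of 32.78 to 46.13 over 6 markers against 15.16 to 20.46 in adult liver. Of 9 hepatocyte markers 5 were above background on both, and so were 4 of 6 endothelial markers. The hepatocyte markers summed to 13.01 to 15.28 against 55.71 to 55.74 in adult liver, with mean Alb at 6.42. In the Lgr5-sorted cells Cyp2a5 stood at 3.64 and 0.59 and Cyp2a4 at 2.34 and 0.78, each above background on 1 array. The part of hepatocyte transcripts in these levels was not tested.

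Organoids in expansion medium held little of the P450 repertoire of adult liver. Against adult liver 48 of 61 genes were lower and 2 higher (32% of all genes called, 17.6% lower and 14.4% higher), with a median of -4.25 against -0.09 for all genes. For 28 of the genes called lower, no EM array was above background. Of the 53 genes above background on both adult liver arrays, 9 were above background on both EM arrays and 28 on neither. Cyp3a41a differed by -9.62 ± 0.56 log2 units, Cyp2a5 by -8.31 ± 0.72 and Cyp2e1 by -5.55 ± 0.57. In Cy3 alone the same genes were lower by at least 952-fold, 913-fold and 666-fold. Cyp2d10, Cyp2j6, Cyp3a13 and Cyp4b1 remained above background on both EM arrays, with Cyp4b1 at 3.31 and 3.34 and Cyp3a13 at 1 and 2.14. EM and adult liver differed in sex-linked transcripts too, with mean Xist at -1.31 and -4.6 and Eif2s3y at -2.8 and 2.64. All 3 male-biased and all 6 female-biased P450 genes listed were lower in EM, and the part of sex was not tested.

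The 2 genes higher in EM than in adult liver were Cyp1b1 and Cyp2s1. Cyp1b1 stood at 1.27 and 1.02 in EM and at -2.85 and -2.79 in adult liver, where 1 array was above background, a log2 difference of 3.97 ± 0.24 (adjusted p = 5.46e-11). Cyp2s1 stood at -1.39 and -0.93 in EM and -2.72 and -2.87 in adult liver (1.63 ± 0.46, adjusted p = 0.00577), and without the second EM array this was no longer called (adjusted p = 0.0567). The other Cyp1b1 probe did not separate the groups: it stood at -0.06 and -0.17 in EM and at -0.04 and -0.28 in adult liver. The aryl hydrocarbon receptor Ahr, which switches on Cyp1 genes, stood at 3.2 and 3.26 in EM and 1.3 and 1.04 in adult liver, and was called higher (2.06 ± 0.41, adjusted p = 0.000355). Of its other targets tested, 1 of 3 was called: the log2 difference of Nqo1 was -2.89 ± 0.3 (adjusted p = 1.15e-07), with 1 of the 2 EM arrays above background.

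The partners of the enzymes were lower too. All 5 genes of electron transfer were called lower in EM, with Por at -0.26 and 0.01 against 1.38 and 1.4, and Cyb5a at -3.31 ± 0.29 on the log2 difference scale. Of 8 haem synthesis genes, 5 were lower and 0 higher, among them Alas1, the rate-limiting enzyme, at -2.95 ± 0.26. Of 19 transcriptional regulators, 10 were lower and 2 higher. The xenobiotic sensors Nr1i2 (PXR) and Nr1i3 (CAR) stood at 4.82 and 5.66 and at 4.06 and 4.55 in adult liver and were above background on no EM array. The bile acid receptor Nr1h4 was above background on 1 EM array and differed by -6.14 ± 0.4. Hnf4a, a driver of hepatocyte genes, differed by -2.35 ± 0.22 and kept levels of 3.52 and 3.33 in EM. Compared with sorted duct cells, EM organoids differed in few P450 genes: 3 were higher and 5 lower (26.5% of all genes called, 12.4% higher and 14.1% lower). Many P450 genes were hardly measured here: 35 were above background on no EM array and 22 on no duct array. Only 10 were above background on both EM arrays and 24 on both duct arrays, so few calls do not show a shared profile. Cyp4f14 was lower, with a difference of -2.68 ± 0.44 (at least 7.03-fold in Cy3), and Cyp2j6 was higher by 1.24 ± 0.4 (adjusted p = 0.0181). The Cyp2j6 call was lost without either duct array (adjusted p = 0.0779 and 0.0607) or the first EM array (adjusted p = 0.142), and with Agilent's log ratio (0.22) and Cy3 alone (0.68, Aquantile). This comparison depended on scaling: with Cy3 alone scaled to the 75th percentile, which also shifted the median of all genes to -0.93, 46 genes were lower and 0 higher.

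In differentiation medium part of the repertoire was higher than in expansion medium. Relative to EM, 26 of 61 genes were higher and 1 lower on the DM array (10.3% of all genes called, 6.24% higher and 4.02% lower), with a median of 0.95 against 0.04 for all genes. DM was 1 array, assumed to vary like the other groups, and it shared a slide with the second EM array. All 27 called genes kept their sign against that array. That had to follow, since 0 of the called genes had overlapping arrays, and it adds no support. The largest differences were in Cyp2c65, a P450 known from intestine, at 8.35 in DM against -0.24 and -0.53 in EM (8.74 ± 0.5, and at least 112-fold in Cy3). Cyp2s1 stood at 5.89 in DM and -1.39 and -0.93 in EM (7.05 ± 0.56, adjusted p = 3.12e-08). That rests on 1 of its 2 probes, since the other was above background on fewer than 2 of all arrays. Cyp2c66 stood at 6.52 against 0.86 and 0, on a probe that also lists Cyp2c65. Cyp2d26 stood at 6.04 against -0.16 and 1.42, and Cyp4f14 at 5.32 against 0.18 and -0.3 (5.38 ± 0.54, and at least 87.5-fold in Cy3). The DM value lay outside the EM range for each of these genes. The fatty acid hydroxylase Cyp4a12a stood at 4.36, the periportal Cyp2f2 at 3.63 and Cyp3a13 at 6.75. Cyp2b10, although called, was above background in neither group, so its difference is not read. Cyp1b1 alone was lower: -2.09 and not above background in DM (-3.23 ± 0.29, and at least 6.72-fold in Cy3). Its other probe was above background in neither medium.

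**Figure D2:**
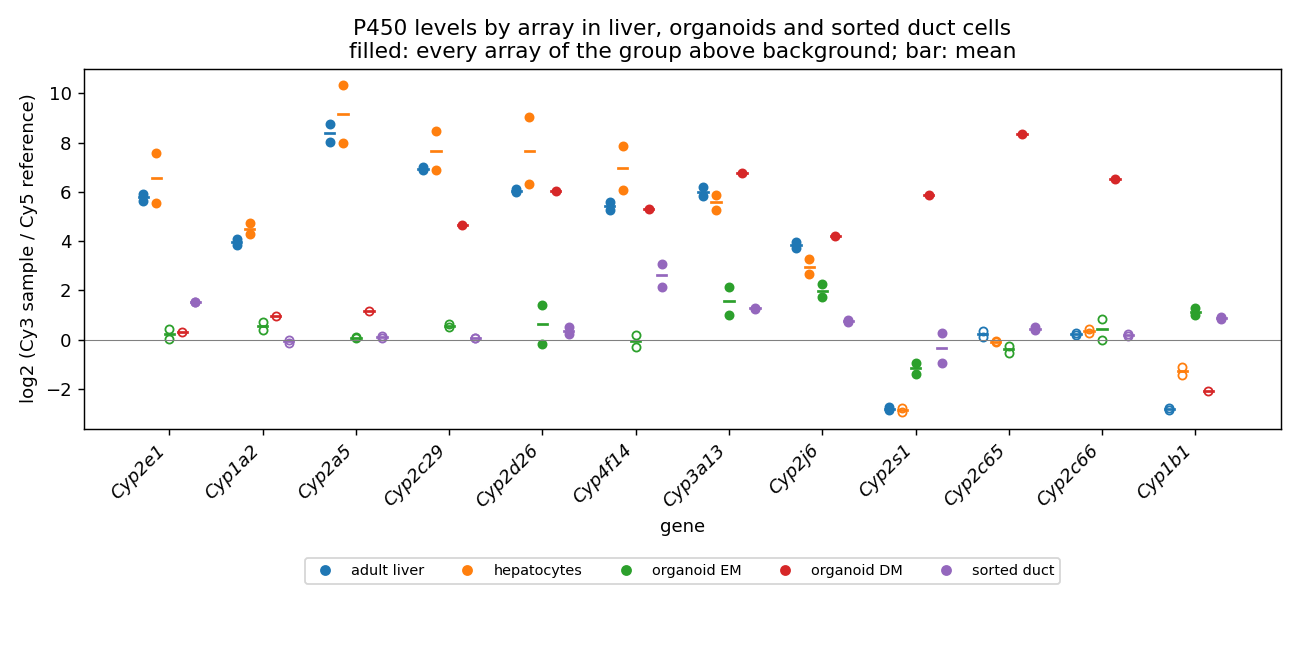
Level of 12 P450 genes on each array (points; y axis log2 of Cy3 sample over Cy5 reference) in adult liver, hepatocytes, EM organoids, DM organoids and sorted duct cells, with bars at the group mean and filled points where every array of the group was above background. Cyp2e1, Cyp1a2 and Cyp2a5 stayed near 0 in DM (0.33, 0.96 and 1.18), Cyp2d26 and Cyp4f14 reached the adult liver points, and Cyp2s1, Cyp2c65 and Cyp2c66 exceeded them.

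Against adult liver, 32 of 61 genes were still lower in DM and 5 higher (28.4% of all genes called, 14.5% lower and 13.9% higher). Of the 53 genes above background on both adult liver arrays, 27 were above background in DM, 12 of them within 1 log2 unit of adult liver on the ratio scale, and 26 were not above background. With Cy3 alone (Aquantile) 39 P450 genes were lower in DM, 8 of them on that scale only, and 5 higher, where 12.6% of all genes were lower and 14.1% higher. The median of the members was -2.46 in Cy3 and -1.63 by the ratio, so nearness to adult liver depended on the scale. By subfamily, in Cyp2d 6 of 7 genes were above background in DM, in Cyp2c 5 of 11, in Cyp4f 4 of 7, in Cyp3a 3 of 6, in Cyp4a 2 of 6 and in Cyp2a 0 of 4. Cyp2d26 and Cyp4f14 stood close to adult liver on the ratio scale, at 6.00 and 6.10 and at 5.57 and 5.25. Within Cyp4a, Cyp4a12a (4.36) and Cyp4a12b (3.89) were measured while Cyp4a14 (-0.42) and the representative Cyp4a10 probe (0.35) were not above background. Another Cyp4a10 probe read 3.4 on this array. Cyp4a14 was below adult liver by at least 113-fold in Cy3.

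All 7 pericentral genes on the list that were measured (Cyp1a2, Cyp2a5, Cyp2c29, Cyp2c37, Cyp2c54, Cyp2e1 and Cyp3a11) were lower in DM than in adult liver, with a median of -5.35, and 2 of the 7, Cyp2c29 and Cyp3a11, were higher than in EM. Cyp2e1 differed from adult liver by -5.45 ± 0.7 log2 units (at least 357-fold in Cy3). The log2 difference of Cyp2c29 was -2.31 ± 0.53 (adjusted p = 0.00179). With Agilent's log ratio the calls below adult liver were lost for Cyp2c29 (-1.01, adjusted p = 0.68) and Cyp3a11 (-2.36, adjusted p = 0.249), while Cy3 alone gave -4.64 and -6.89, both called. The Cyp3a11 call above EM was lost under 4 alternatives, among them without the first EM array (1.26, adjusted p = 0.191). Cyp2f2, the periportal member, stood at 3.63 in DM and 5.38 and 5.35 in adult liver and was not called. The list was fixed with earlier results of these data known.

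**Figure D3:**
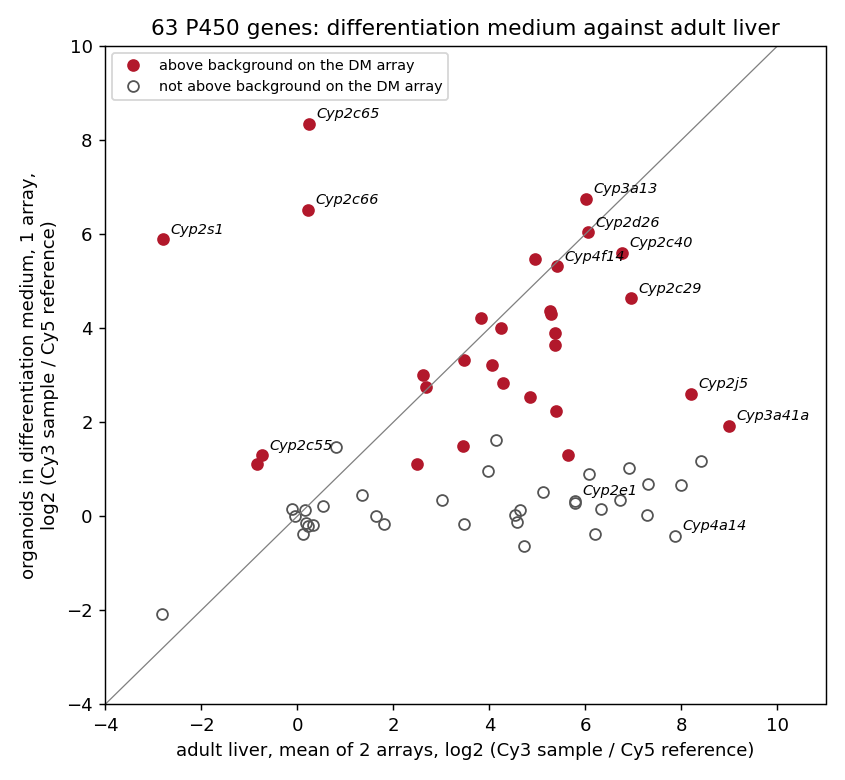
Level of each of the 63 P450 genes in DM organoids (y axis, 1 array) against adult liver (x axis, mean of 2 arrays), both as log2 of Cy3 sample over Cy5 reference, with a line of equal levels; filled points were above background in DM. Cyp2c65, Cyp2c66 and Cyp2s1 lie far above the line, Cyp3a13, Cyp2d26 and Cyp4f14 near it, and Cyp2e1, Cyp2j5, Cyp3a41a and Cyp4a14 far below it.

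The genes higher in DM than in adult liver were Cyp2s1 (8.68 ± 0.56), Cyp2c65 (8.11 ± 0.5), Cyp2c66 (6.29 ± 0.34), Cyp2c55 (2.03 ± 0.56) and Cyp4f16 (1.95 ± 0.25). Cyp2c55, a gut and liver epoxygenase, stood at 1.3 in DM, -3.66 and -3.68 in EM and -0.22 and -1.25 in adult liver, and without the second adult liver array it was no longer called (1.52, adjusted p = 0.0766). Part of the intestinal epithelium markers moved with them: 3 of 5 were called higher in DM than in EM. Of the 5 such markers, 4 were above background in DM, with a summed level of 28.05 against 4.3 to 7.43 in EM and -2.99 to -2.88 in adult liver. Clca1 stood at 8.73 in DM and 0.13 and 0.36 in EM, Krt20 at 6.74 against -2.27 and -1.07, and Cdx2 at 5.48 against 1.67 and 1.72. Vil1 was level, at 5.21 in DM and a mean of 5.21 in EM, and Muc2 was not above background. Hepatocyte markers moved as well, with 5 of 9 above background in DM and a summed level of 21.03 against 1.89 to 3.49 in EM and 55.71 to 55.74 in adult liver. Cps1, Tat, Fgb and Serpinc1 were not above background. The part of either in the P450 levels was not tested. Among the partners, Por rose by 1.67 ± 0.46 and Cyb5a by 1.37 ± 0.36 from EM to DM, and 0 of 8 haem synthesis genes were called. Hnf4a rose by 1.16 ± 0.27 and Nr1h4 by 3.9 ± 0.49, and Ahr fell, at 0.09 in DM. Nr1i2 was above background in neither medium, so its difference is not read. The Y-linked gene Eif2s3y stood at 1.87 in DM and at -2.96 and -2.64 in EM, so the arrays differed in sex-linked transcripts as well as in medium. All 3 P450 genes listed as male-biased in mouse liver, Cyp2d9, Cyp4a12a and Cyp4a12b, were higher in DM than in EM, with a median difference of 4.16. The Cyp4a12a and Cyp4a12b probes each list the other gene, so they are not separate readings. Of the 6 listed as female-biased, 2 were higher and 0 lower, with a median of 1.7. The 2 were Cyp2b9 and Cyp3a41a, and both calls were lost without background subtraction. The other Cyp2b9 probe read 0.86 in DM and was not above background. Sex and medium cannot be told apart for these genes.

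At day 3 of CCl4, part of the P450 set was lower than in the 4 undamaged arrays (adult liver and whole liver together): 10 of 61 genes were lower and 3 higher (6.97% of all genes called, 2.01% lower and 4.96% higher). Cyp2a5 stood at 6.02 and 5.57 at day 3 and between 8.04 and 10.39 in undamaged liver (-3.17 ± 0.62, adjusted p = 0.00132). Cyp2c54, a linoleic acid epoxygenase, stood at 2.07 and 2.32 against 6.02, 6.64, 4.21 and 3.67 (-2.94 ± 0.2, adjusted p = 8.01e-09). Neither gene's groups overlapped. With Agilent's own log ratio the Cyp2a5 difference was -0.68 and not called (adjusted p = 0.781). Cyp4a10 and Cyp4a14, targets of the fatty acid sensor PPARα, differed by -2.47 ± 0.45 and -2.04 ± 0.51, and Cyp2c37 by -2.3 ± 0.41. The Cyp4a14 call was lost without the second day 3 array (-1.74, adjusted p = 0.151), against whole liver alone (adjusted p = 0.0583), with the groups alone (adjusted p = 0.0722) and with Agilent's log ratio (adjusted p = 0.252). The Cyp2c37 call was lost with Agilent's log ratio (adjusted p = 0.0732). The remaining genes called lower were Cyp2c38, Cyp2c39, Cyp2g1, Cyp4a12b and Cyp4f13. Of the 7 pericentral genes, 3 were lower and 4 were not called. Cyp2e1 was among the latter, at 5.23 and 5.27 against 5.63, 5.93, 5.42 and 6.78. Cyp1a2 (3.8 and 3.78) and Cyp3a11 (5.54 and 5.46) were not called either. For Cyp2e1 both channels, after loess and Aquantile, were lower at day 3, so the ratio does not show the difference in Cy3 on that scale. Its log2 Cy3 signal was 12.9 and 12.66 at day 3 and 16.41, 16.71, 17.15 and 16.59 in undamaged liver, and its Cy5 signal 7.68 and 7.39 against 10.77, 10.78, 11.72 and 9.81. With Cy3 alone (Aquantile) Cyp2e1 was lower at day 3 by -3.93 ± 0.56 (adjusted p = 6.48e-05), Cyp2c29 by -1.84 ± 0.28 and Cyp2a4 by -4.26 ± 0.51, and 5 of the 7 pericentral genes were lower. On that scale 22 P450 genes were lower and 3 higher, where 2.26% of all genes were lower and 4.46% higher. These 22 held all 10 genes lower by the ratio and 12 others, so the number of P450 genes lower at day 3 depended on the scale. Cyp1a2 and Cyp3a11 were not called on either.

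The 3 genes higher at day 3 were Cyp1a1, Cyp2c55 and Cyp4f16. Cyp1a1, the classic aryl hydrocarbon receptor target, stood at 2.62 and 2.93 at day 3, at 0.33 on both adult liver arrays and at 0.1 and -0.01 in whole liver (2.59 ± 0.14, adjusted p = 7.43e-10). With Cy3 alone scaled to the 75th percentile the difference was 1.2 and no longer called (adjusted p = 0.129). Day 3 was the only group with both arrays above background for it. None of the 3 other receptor targets tested was called. Cyp2c55 rose by 2.02 ± 0.4 and Cyp4f16 by 1.33 ± 0.18. Cyp2c65 read 0 and 2.19 at day 3, both above background. Of 6 stellate markers 4 rose at day 3, with a summed level of -0.83 to 0.18 against -14.97 to -11.97 in adult liver, while hepatocyte markers summed to 55.03 to 55.49 against 55.71 to 55.74. Their part in the P450 changes was not tested. Leaving out the first whole liver array raised the count from 13 called genes to 21.

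At day 13, 4 genes were higher and 2 lower than in undamaged liver (1.35% of all genes called, 0.931% higher and 0.423% lower). Cyp2b10, an inducible CAR target, was higher by 2.32 ± 0.32 (adjusted p = 0.000561) at 2.38 and 3.75, against 0.79, 0.81, 0.15 and 1.23. Cyp2c38, Cyp2g1 and Cyp2c54 were higher by 2.17 ± 0.4, 2.1 ± 0.42 and 1.18 ± 0.2. Cyp2c54 was level with adult liver alone, with a difference of -0.01. Cyp4a12a fell to 0.83 and 1.16 from 4.98, 5.54, 6.04 and 2.46 (-3.76 ± 0.63, adjusted p = 0.0027), and Cyp2u1 to 0.31 and 0.42 (-1.7 ± 0.32). The day 13 arrays overlapped the undamaged ones for Cyp2c54, Cyp2g1 and Cyp2u1. Against day 3, 14 genes were higher and 4 lower at day 13 (5.69% of all genes called, 2.13% higher and 3.56% lower), led by Cyp2c38 (4.26 ± 0.46, and at least 11.6-fold in Cy3), Cyp2c54 (4.12 ± 0.23) and Cyp2g1 (3.94 ± 0.49). All 4 arrays were on 1 slide. Leaving out the second array of either time gave 9 calls in place of 18. For day 13 against undamaged liver, leaving out the first or the second day 13 array gave 2 and 3 calls in place of 6. The Cyp2c38 call was lost without either (adjusted p = 0.0641 and 0.137) and the Cyp4a12a call without the first (-3.59, adjusted p = 0.0717). Fitted to the groups alone, Cyp2b10, Cyp2c38 and Cyp4a12a were not called (adjusted p = 0.0842, 0.156 and 0.111). Transcripts of other tissues also set the first day 13 array apart: muscle markers summed to 15.63 on it and -0.63 on the other, against -3.23 to -0.73 in undamaged liver, and adipocyte markers to 16.51 and 4.36 against 3.5 to 7.89. Their part in the day 13 differences was not tested.

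**Figure D4:**
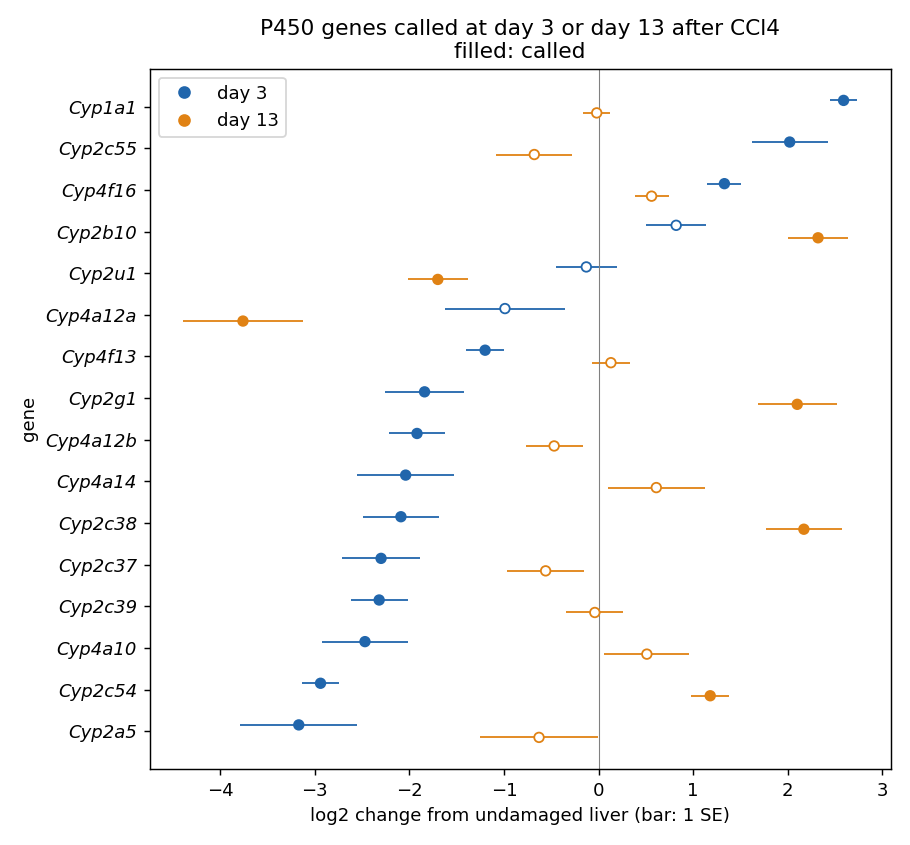
Log2 change from undamaged liver (x axis, bars 1 SE) of the 16 P450 genes called at day 3 (blue) or day 13 (orange) of CCl4, with filled points where the change was called. Most blue points lie below 0, down to -3.17 for Cyp2a5, while the orange points lie within 1 of 0 apart from Cyp2b10, Cyp2c38, Cyp2g1, Cyp2c54, Cyp2u1 and Cyp4a12a.

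Several genes called at day 13 moved with the sex-linked transcripts of the arrays. Xist, which is made from the inactive X chromosome, stood at 2.26 and 2.43 at day 13 and at 2.53 on the second whole liver array, and between -4.67 and -1.84 on the other 7 liver and hepatocyte arrays. The Y-linked Eif2s3y stood at -2.3, -2.2 and -0.91 on those 3 arrays and between 1.72 and 2.84 on the other 7. The 2 whole liver arrays, labelled as replicates, therefore differed in these transcripts. On the same 3 arrays Cyp2b13 stood at 5.59, 5.91 and 6.65 and elsewhere in liver between 0.43 and 2.91. Cyp2c38 read 4.22, 4.53 and 4.06 there and at most 1.74 elsewhere. Cyp2g1 stood at 3.79, 5.09 and 4.01, and Cyp4a12a at 0.83, 1.16 and 2.46. For some female-biased genes a further probe differed more between these arrays. The Cyp3a44 probe not used for the gene read 8.57, 9.04 and 9.27 on the 3 arrays, 4.06 and 4.64 at day 3, and from -0.04 to 3.21 on the other 5, whereas the brighter probe read between 5.71 and 8.56 on all 10. The other Cyp2b9 probe read 5.55, 5.84 and 4.26 on the 3 arrays and at most 1.1 on the other 7. The genes listed as sex-biased did not all follow this pattern. Of the 6 female-biased genes 0 were called at day 13 against undamaged liver, with a median of -0.1, and of the 3 male-biased genes 1 was lower. Mean levels of Cyp3a41a were 8.68 at day 13, 9 in adult liver and 10.17 in whole liver, and those of Cyp2a4 were 7.57, 7.31 and 8.43. Because both day 13 arrays and 1 of 4 undamaged arrays had high Xist and low Y-linked levels, sex and CCl4 at day 13 cannot be told apart. Without the 9 genes listed as sex-biased, 5 genes were called at day 13 in place of 6, and 12 at day 3 in place of 13. Of the genes called at day 13 only Cyp4a12a is on that list, so the loss of 1 call was set by the list. Cyp2c38, Cyp2g1 and Cyp2u1 are not on it, so this count does not separate sex from CCl4.

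**Figure D5:**
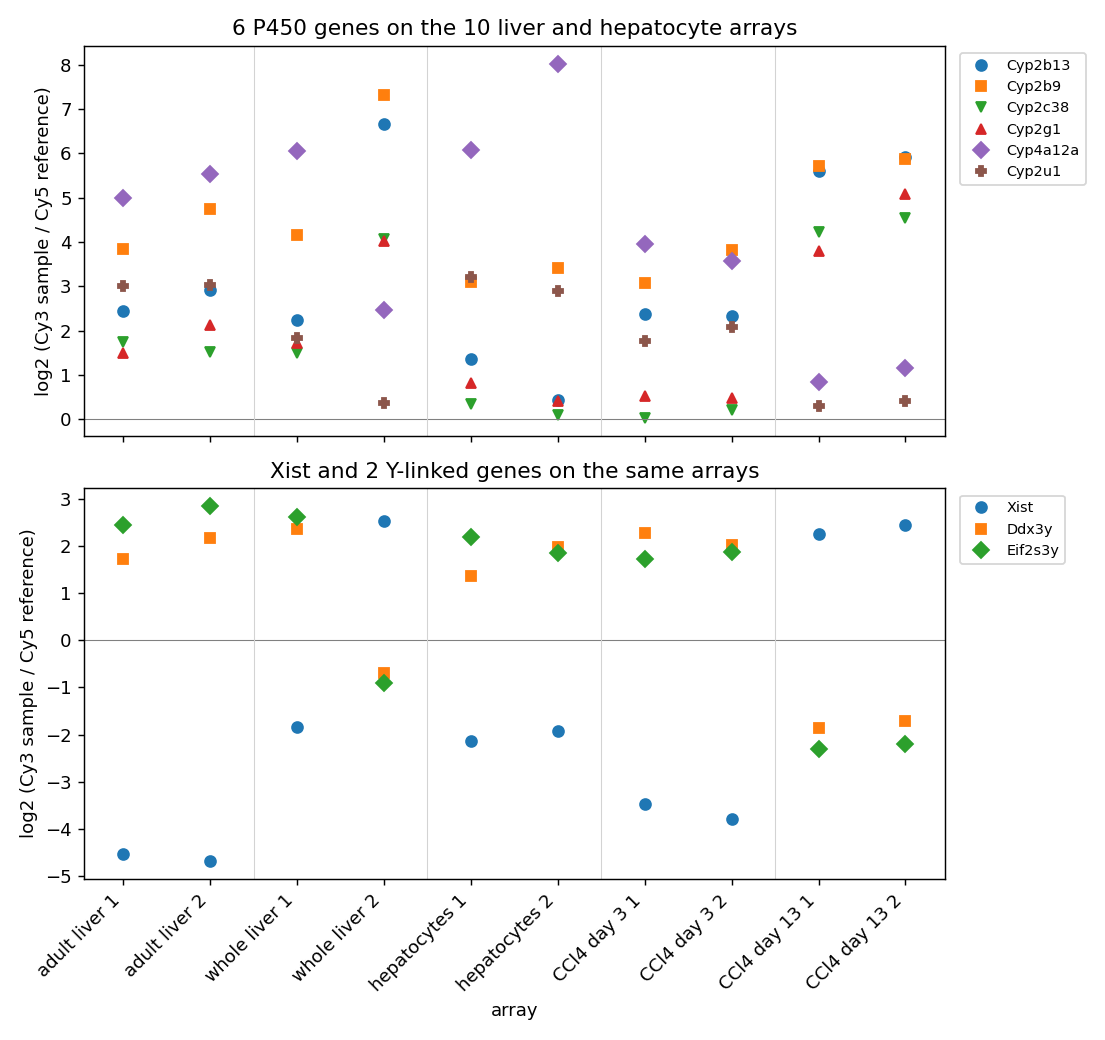
Levels (y axis, log2 of Cy3 sample over Cy5 reference) on each of the 10 liver and hepatocyte arrays (x axis) of 6 P450 genes (upper panel) and of Xist, Ddx3y and Eif2s3y (lower panel). On both day 13 arrays and the second whole liver array Xist lies above 0 and Eif2s3y below it, and Cyp2b13, Cyp2b9, Cyp2c38 and Cyp2g1 lie high while Cyp4a12a and Cyp2u1 lie low.

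The hepatocyte fraction and whole liver differed in 5 P450 genes (0.798% of all genes called, 0.423% higher and 0.375% lower). Cyp2b13, Cyp2c38 and Cyp2g1 were lower in hepatocytes and Cyp4a12b and Cyp2u1 higher, with Cyp2u1, a long-chain fatty acid hydroxylase, at 3.21 and 2.89 against 1.84 and 0.37 (1.95 ± 0.37, adjusted p = 0.0111). These include genes of the sex-linked pattern, and the second whole liver array was the one with high Xist. Without that array 1 gene was called. The haem synthesis gene Alas1 was lower in hepatocytes, with a log2 difference of -1.91 ± 0.26 (adjusted p = 0.000563). The 2 arrays of each group also differed in level: the second read higher for 35 of 46 genes in hepatocytes (median gap 1.08) and for 38 of 49 in whole liver (median gap 0.89), while in adult liver the median gap was 0.17.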

How the data were processed

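RNA of 28 samples in 13 groups was measured on Agilent two-colour arrays. The deposited scanner files hold the intensity of each spot in both channels, and their LogRatio column is log10 of Cy5 over Cy3, per the file headers. Feature Extraction 10.5.1.1 and build mm9 are named in the file headers. Background was corrected by normexp with an offset of 50 and dyes by loess within arrays, with limma 3.58.1 in R 4.3.3. Spots flagged as outliers were left out and spots of a probe averaged. Genes were represented by the probe of highest mean Cy3 signal. One model with 13 group means was fitted to all 28 arrays, tested with limma's moderated test and adjusted by Benjamini-Hochberg over all genes. Lower bounds of a fold and the Cy3 values came from Cy3 alone after loess and Aquantile. Both of these steps also draw on Cy5. The script was tested on simulated data. The P450 members and gene lists were chosen with earlier results of these data known. Test values were given for the 5 largest called differences each way in a comparison and for a fixed list of key members; others were named after their values were seen (Cyp2c54, Cyp2c38, Cyp2g1 and Cyp4a12b beside the sex-linked transcripts, and further probes that disagreed). P-values measure the spread between arrays labelled as biological replicates. The number of arrays limits the precision. Alternatives covered background correction, scaling, the filter, slide and scan blocks, and each array left out.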

Additional observations from a re-analysis of the deposited data

How the results depend on the processing

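Of 267 called pairs of gene and comparison followed through the alternatives, 208 stayed called under all of them. Numbers of called P450 genes moved by over 1.5 times as follows, and the cause was not tested. Hepatocytes against whole liver (5 calls) gave 2 with Agilent's log ratio, 0 with Cy3 alone at the 75th percentile, 9 with Aquantile, 3 without background subtraction, 0 with the groups alone and 3 with probes listing no other gene. EM against duct cells (8) gave 14, 46 and 13 under the first 3 of these and 5 with probes listing no other gene. Day 3 (13) gave 25 with Aquantile and 21 against whole liver alone. Day 13 (6) gave 3 with Agilent's log ratio, 0 with the groups alone and 11 against whole liver alone, and day 13 against day 3 (18) gave 8 with Agilent's log ratio. Reversed values were Cyp2a5 at day 13 against day 3 (-0.23, Agilent's log ratio), Cyp2c40, Cyp2j6 and Cyp2j13 in EM against duct cells (-0.34, -0.01 and -0.88, 75th percentile) and Cyp2c54 at day 13 (-0.01, adult liver alone). Leaving out 1 array gave 1 to 10 calls for hepatocytes, 5 to 8 for EM against duct cells, 11 to 21 for day 3, 2 to 7 for day 13, 9 to 13 for day 13 against day 3, 44 to 49 against muscle, 47 to 50 against white fat, 44 to 49 against brown fat, 50 to 52 against pancreas, 44 to 45 for duct cells, 48 to 50 for EM, 22 to 23 for DM against EM and 34 to 37 for DM against liver. The replicate block, where samples share only a number, gave 45 calls for duct cells, 50 for EM and 19 for day 13 against day 3, and ended the Cyp2s1 call against brown fat (adjusted p = 0.0601). Crossed numbers also gave 19.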
